A study of Saccharomyces cerevisiae with 12 samples.

Results

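Ty elements are the long terminal repeat retrotransposons of Saccharomyces cerevisiae. Each copy is transcribed into 1 full-length RNA that holds the TYA gene, which encodes the Gag protein of the virus-like particle, followed by TYB, which encodes the Pol enzymes (protease, integrase and reverse transcriptase) and is translated as a Gag-Pol fusion after a ribosomal frameshift. Ty1 and Ty2 are close relatives, Ty3 belongs to the gypsy type, and Ty4 is present in few copies. Ty1 transcription is known to depend on the invasive-growth factors Ste12 and Tec1, on the chromatin complexes SAGA and Swi/Snf, and on mating type, and Ty1, Ty2, Ty3 and Ty4 insert near tRNA genes.

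The members were the open reading frames (ORFs) annotated as TYA (Gag) or TYA-TYB (Gag-Pol) genes that had a row in the deposited table. Of 60 listed ORFs, 30 were present among the 6150 ORFs of the table, and the other 30 were not analysed here. The 30 comprised 20 Ty1, 6 Ty2, 2 Ty3 and 2 Ty4 ORFs. Of the Ty1 rows, 8 were TYA ORFs and 12 were larger ORFs that hold TYB, and of the Ty2 rows 2 were TYA and 4 held TYB. Copies of a class share most of their sequence and the probes are not described in the labels, so a row may carry signal of its relatives and the rows are not independent measurements. The ORFs were chosen by their annotation, and as a set they were selected on their log2 ratios on these same 12 arrays, so their values, and the numbers of them called in fits over all ORFs, are descriptions and not tests of the set.

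The cells were BY4741, a haploid MATa strain with its URA3, MET17, LEU2 and HIS3 genes wholly or partly deleted, and were grown on glucose before being placed on nylon membranes on solid YP acetate, a carbon source that yeast must respire. They were exposed to pure nitrogen (N2) or pure carbon monoxide (CO) for 15, 30, 45, 60 or 120 min or for 24 h, in which state their cell division is arrested, per the labels. Each of 12 two-colour arrays compared RNA of gas-exposed cells (Cy5) with RNA of cells kept in room air on the same medium for the same time (Cy3). Each gas had 6 arrays, 1 for each time, with no repeat of a gas and time and no swap of dyes. The times therefore serve in place of replicates, and the number of arrays limits the precision. Any error below comes from spread between arrays of different times or gases, as given for each fit in the processing section, and not from repeat cultures.

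Values are log2 of gas over air, with the direction taken from the dyes and the base from the range of the values. A higher ratio can come from more transcript under the gas or from less in air, and the 2 cannot be told apart, nor can less RNA per cell and fewer cells. A table of 5843 to 6056 ORFs per array had medians between -0.18 (CO, 24 h) and 0.01, while the standard deviation over ORFs grew from 0.357 (CO, 15 min) to 1.27 (N2, 24 h). Of the 30 Ty ORFs, 29 had a value on all 12 arrays. The exception, YIL080W of Ty3, lacked values for N2 at 60 min and for CO at 60 and 120 min.

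At 24 h nearly all Ty ORFs lay far above air in both gases. The median over the 30 ORFs was 4.36 in N2, a 20.5-fold higher ratio, and 3.16 in CO, or 8.94-fold, when the median of all ORFs was -0.03 and -0.18. Over the first 2 h the same median had stayed between 0.14 and 0.71 in N2 and between 0.13 and 0.88 in CO. From 120 min to 24 h the ratio rose by a median of 3.30 in N2 (0.23 to 4.87 over 30 ORFs) and of 2.14 in CO (0.05 to 4.47 over 29 ORFs). At 24 h, 17 of the 29 complete Ty ORFs were at or above a log2 of 3 in both gases, a level that 0.970% of the 5672 complete ORFs reached (55 ORFs). At or above 2 in both were 22 of 29 (3.28% of all ORFs), and at or above 1 in both were 28 of 29 (12.6%), and the same number, 28, exceeded all 5 earlier times of their own series in both gases, against 21.2%. On all 12 arrays 10 of the 29 were above 0, against 11.0% of all ORFs.

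**Figure D1:**
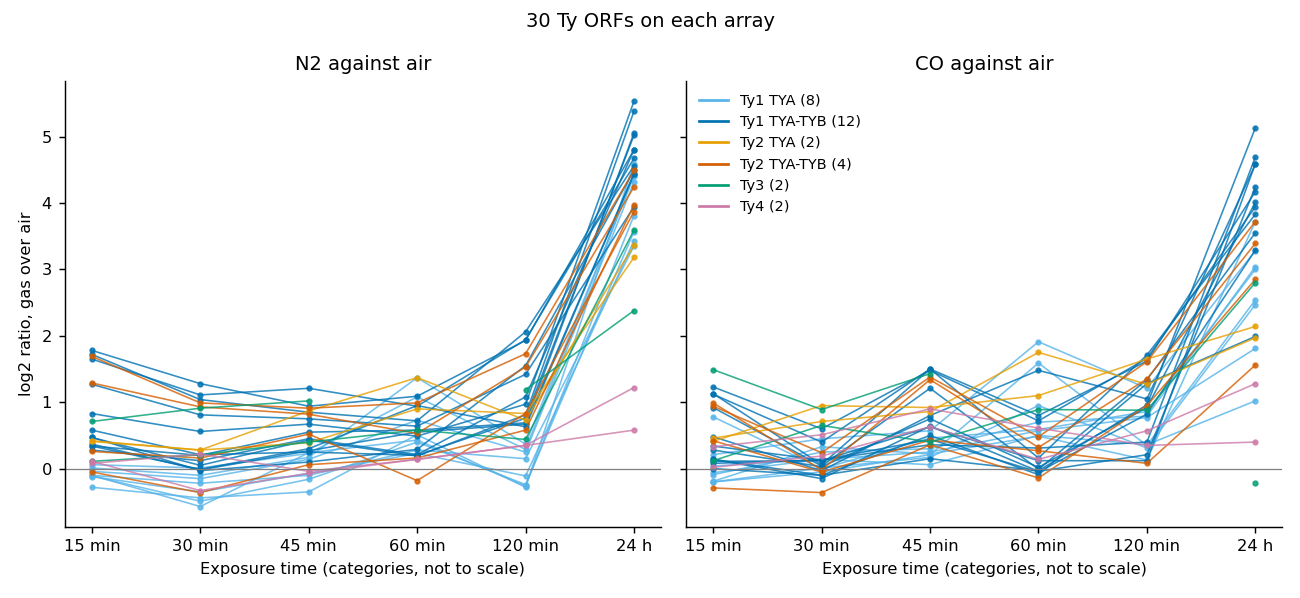
Each line is 1 of the 30 Ty ORFs, with the log2 ratio of gas over air on the y axis and the exposure time as categories on the x axis, for N2 (left) and CO (right), coloured by class and gene. Between 15 and 120 min the lines lie between -0.57 and 2.06, and at 24 h they fan out from -0.22 to 5.53, with the 2 Ty4 ORFs low in both panels.

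The TYB-holding ORFs of Ty1 reached the highest values. Their median at 24 h was 4.74 in N2 (3.94 to 5.53 over 12 ORFs) and 4.09 in CO (1.99 to 5.13). YER138C, a Gag-Pol ORF, had the highest mean over the 12 arrays of all Ty1 ORFs. In N2 its log2 ratio was 1.78 at 15 min, 1.28 at 30 min, 0.94 at 45 min, 1.09 at 60 min, 1.93 at 120 min and 4.80 at 24 h. In CO the values were 1.12, 0.40, 1.5, 0.80, 1.62 and 4.17 in the same order. It was above air on every array, and the 24 h ratios corresponded to 27.9-fold and 18-fold. The highest single value was that of YJR029W, another Gag-Pol ORF, at 5.53 in N2, and the highest in CO was YML045W at 5.13.

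The Gag ORFs of Ty1 had medians between -0.29 and 0.14 at 15 and 30 min, were above air in all 8 rows at 60 min and were highest at 24 h. At 60 min their median was 0.47 in N2 (0.23 to 1.37) and 0.65 in CO (0.49 to 1.91, the highest being YMR046C), and at 120 min 0.02 and 0.57. Their median at 24 h was 4.06 in N2 (3.35 to 4.59 over 8 ORFs) and 2.77 in CO (1.02 to 3.72), while their mean over 15 to 120 min had lain between -0.17 and 0.36 in N2 and between 0.20 and 0.87 in CO. YBR012W-A had the lowest mean of all Ty1 ORFs. Its ratios in N2 were -0.12, -0.35, -0.07, 0.23 and -0.11 from 15 to 120 min and 3.43 at 24 h. In CO they were 0.04, 0.14, 0.06, 0.50, 0.36 and 1.02, so that the last value of this ORF in CO was 2.03-fold above air and its last value in N2 10.8-fold. YBR012W-A and YBR012W-B, the Gag-Pol ORF of the same element, had the lowest CO values at 24 h among the Ty1 TYA and the Ty1 TYB-holding ORFs respectively, the latter at 1.99.

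Ty2 also had its highest ratios at 24 h, where its class median was below that of Ty1 in both gases, although at every earlier N2 time and at 15, 30, 45 and 120 min in CO it was above. At 24 h the median of its 6 ORFs was 3.92 in N2 (3.18 to 4.49) and 2.5 in CO (1.56 to 3.72). YBL101W-B, a Gag-Pol ORF, had the highest mean, with 1.69, 0.99, 0.91, 0.99, 1.73 and 4.49 in N2 from 15 min to 24 h. Its values in CO were 0.94, 0.24, 1.38, 0.48, 1.61 and 3.72. YFL002W-A, another Gag-Pol ORF, had the lowest mean of the class, although its 24 h values were not the lowest of the class. It started at -0.05, -0.36, 0.06, 0.16 and 0.58 and ended at 3.97 in N2. In CO it ran from -0.29, -0.36, 0.36, -0.14 and 0.95 to 2.85. The 2 Ty2 ORFs thus were furthest apart at 15 min in N2.

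The 2 Ty3 rows disagreed in CO. YIL082W-A, the Gag-Pol ORF, had 0.11, 0.21, 0.40, 0.58, 0.44 and 3.59 in N2 and 0.12, 0.65, 0.40, 0.89, 0.88 and 2.80 in CO, and was highest at 24 h in both. YIL080W, annotated with Pol alone, had 0.71, 0.91, 1.02, 1.19 and 2.38 in N2 at 15, 30, 45 and 120 min and 24 h. In CO it had 1.49, 0.89 and 1.43 at 15, 30 and 45 min and -0.22 at 24 h, so that it was high early and below air at the end, in the opposite order to YIL082W-A. YIL080W had no counterpart in the annotation used here, and its missing values fell on 3 of the 5 arrays with the fewest measured ORFs.

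Ty4 changed least. YJL113W, its Gag-Pol ORF, had 0.08, 0.22, -0.04, 0.14, 0.35 and 1.22 in N2 and 0.02, 0.19, 0.63, 0.14, 0.57 and 1.28 in CO, and 24 h was its highest time in both gases at 2.33-fold and 2.43-fold. YJL114W, its Gag ORF, had 0.11, -0.33, -0.07, 0.14, 0.35 and 0.58 in N2. Its CO values were 0.33, 0.51, 0.90, 0.61, 0.35 and 0.40, so that its 24 h value in CO lay inside its earlier range. YJL114W was the only complete Ty ORF that did not exceed all of its earlier values at 24 h in both gases. The fifth class, Ty5, was not among the listed ORFs, and its 3 rows were looked up after the other values had been seen. At 24 h YCL074W stood at 0.15 in N2 and -0.34 in CO, YCL075W at -0.21 and -1.26, and YCL076W at -0.50 in N2 with no value in CO, so none of the 3 exceeded the highest of its own earlier values.

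**Figure D2:**
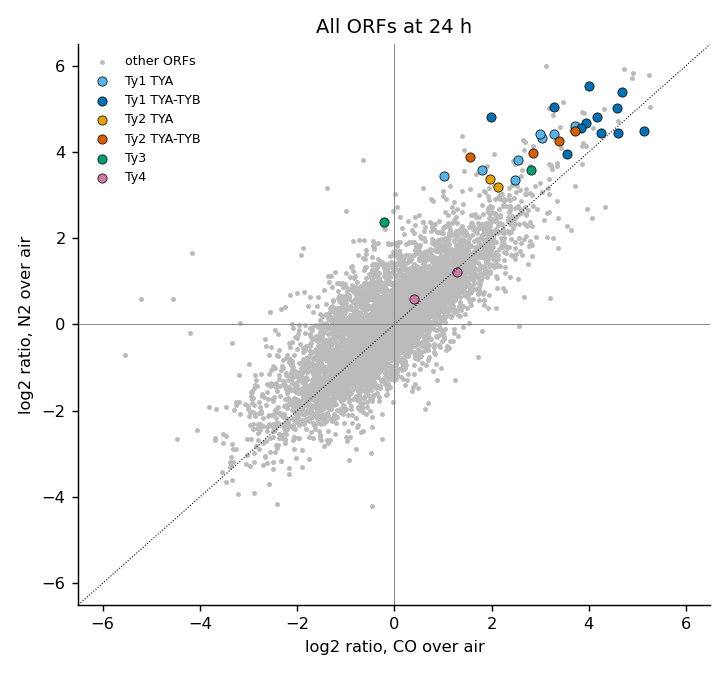
Every ORF with a value on both 24 h arrays is a point at its log2 ratio of CO over air (x axis) and N2 over air (y axis), with the Ty ORFs coloured by class and gene. The Ty1 and Ty2 ORFs occupy the upper right edge, mostly above the dotted line of equal ratios, YIL080W of Ty3 stands at -0.22 and 2.38, and the 2 Ty4 ORFs lie inside the main cloud.

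In the fit of 24 h against the mean of the earlier periods (limma, both gases together, in which a constant dye effect cancels), the median estimate over the 29 Ty ORFs was 3.04, against -0.06 over all ORFs. The estimate was 3.24 ± 0.33 (SE) for YER138C, 2.17 ± 0.43 for YBR012W-A, 3.00 ± 0.35 for YBL101W-B and 3.30 ± 0.30 for YFL002W-A. It was 2.74 ± 0.23 for YIL082W-A, 1.01 ± 0.19 for YJL113W and 0.18 ± 0.22 for YJL114W. At an adjusted p below 0.05 the fit called 28 of 29 Ty ORFs higher and 0 lower, where 22.5% of all ORFs were called higher and 25.1% lower, and 12 of the 30 largest estimates belonged to Ty ORFs. These counts describe rows that share sequence and were picked out with this contrast known, and nothing is read from them. Quantile normalization, which forces the arrays to one distribution, lowered the median to 1.29 and the count to 19, and the estimate of YER138C to 0.63. The share of all ORFs called after quantile normalization is not given here, so the lower count cannot be set against it.

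Ty ratios at 24 h were higher in N2 than in CO for most ORFs. Of 29 ORFs, 26 were higher in N2, where 54.1% of all ORFs were, and the count was the same after each array was centred on its median, where the share over all ORFs was 45.4%. The median difference, N2 minus CO, was 0.87, against 0.06 over all ORFs. The largest differences were those of YBR012W-B at 2.81, of YBR012W-A at 2.41 and of YLR035C-A, a Ty2 ORF, at 2.31, and YIL080W, which is not among the 29, had 2.6. The exceptions were YML045W at -0.64, YBL005W-B at -0.15 and YJL113W at -0.06. Each of these rests on 1 array per gas, so the difference at 24 h could not be tested.

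**Figure D3:**
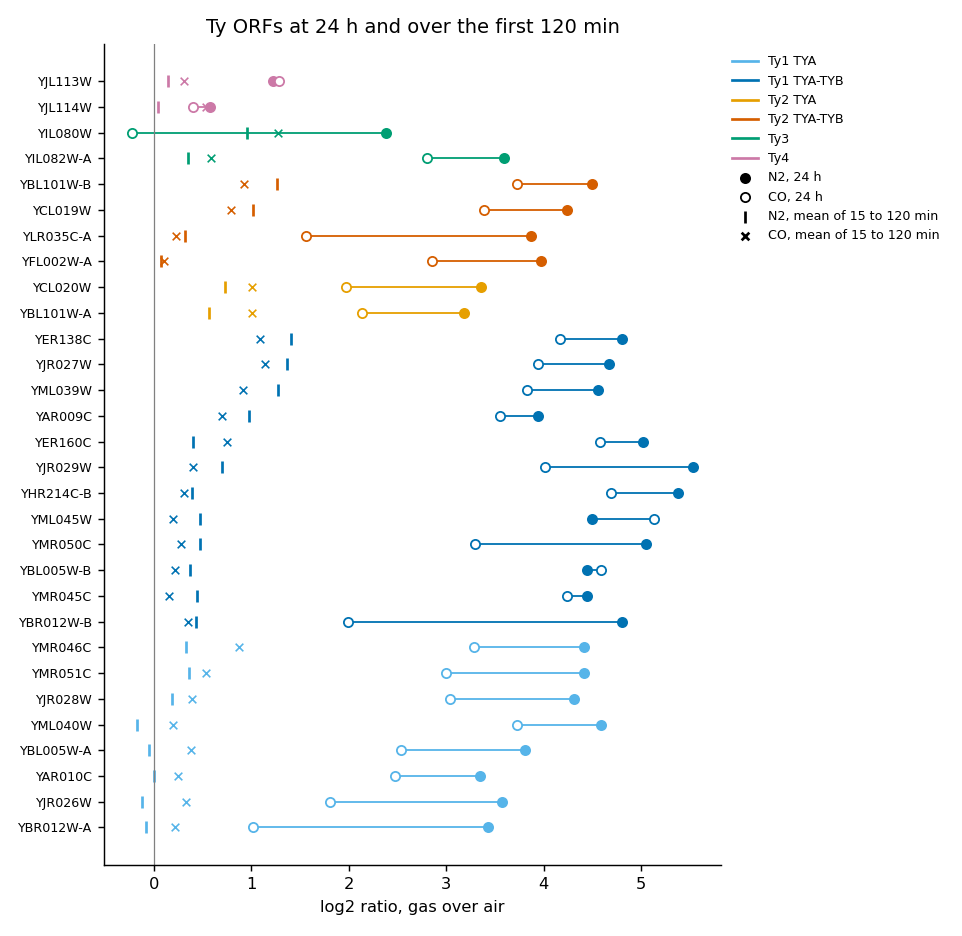
For each of the 30 Ty ORFs (rows, by class), filled and open circles give the log2 ratio of gas over air at 24 h in N2 and CO, joined by a line, and the bar and the cross give the mean of the 15 to 120 min arrays in N2 and CO. The circles of 27 ORFs lie higher in N2, and the joining line is longest for YBR012W-B, from 1.99 to 4.80.

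At the other times N2 was not the higher gas throughout. The number of ORFs higher in N2 was 20 of 29 at 15 min, 14 at 30 min, 5 at 45 min, 16 at 60 min and 12 at 120 min, where 52.3%, 49.5%, 49.8%, 52.5% and 51.0% of all ORFs were. In the fit over all times with exposure time as a block, the median of CO minus N2 was -0.13 over the Ty ORFs and -0.03 over all ORFs. It called 0 of 29 Ty ORFs and 0% of all ORFs in either direction, with 3 Ty ORFs and 584 of all ORFs at an unadjusted p below 0.05, so no difference between the gases was detectable with these arrays. Without the 24 h arrays the median over the Ty ORFs was 0.026.

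Within the first 2 h a subset of Ty rows stood apart. Chosen after the values were seen as those at or above 0.90 at 15 min in both gases, they were the Ty1 ORFs YER138C, YJR027W, YML039W and YAR009C and the Ty2 ORFs YBL101W-B and YCL019W, all of which hold TYB. They were 6 of 29 Ty ORFs, against 0.494% of all ORFs. On the N2 array of 15 min YER138C was the highest of all 6004 ORFs. The median over the 6 rows was 1.67, 1.01, 0.88, 0.83 and 1.83 in N2 from 15 to 120 min, and 1.05, 0.15, 1.43, 0.40 and 1.61 in CO. The values at 15 min restate the choice of the rows. At the times that the choice did not use, the 6 rows were highest at 120 min in both gases before 24 h, in CO next highest at 45 min, and in CO lowest at 30 min.

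The remaining TYB-holding ORFs of Ty1 and Ty2 had lower medians over the same period, which at 15 min restates the choice. Over these 10 rows the median in N2 was 0.36, 0.09, 0.36, 0.25 and 0.79, and in CO 0.14, -0.04, 0.47, -0.01 and 0.87. At 15 min the highest of the 10 in N2 was YJR029W at 0.83, which stood at 0.28 in CO. The highest of the 10 in CO was YER160C at 0.48, which stood at 0.58 in N2. Both ORFs were below the threshold that chose the 6 in each gas. The lowest values of the 6 were 1.27 in N2 and 0.92 in CO. At some later times single rows overlapped, as at 60 min in CO, where YER160C stood at 1.48 and the highest of the 6 at 0.80. At 45 min they did not overlap in either gas. At 24 h the order did not persist: the 6 rows had medians of 4.53 in N2 and 3.78 in CO and the other 10 had 4.64 and 4.12. YJR027W and YJR029W, the Gag-Pol ORFs of neighbouring Ty1 copies on chromosome X, fell on different sides of this division.

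**Figure D4:**
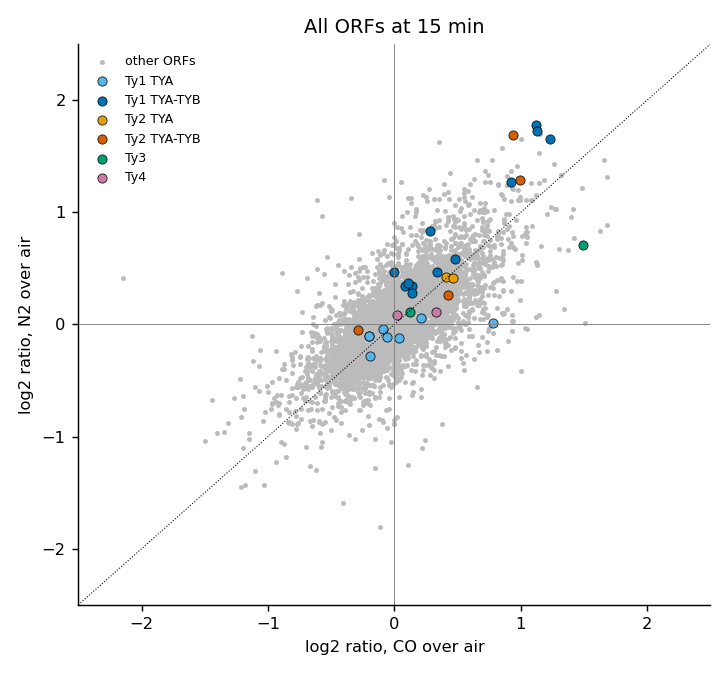
Every ORF with a value on both 15 min arrays is a point at its log2 ratio of CO over air (x axis) and N2 over air (y axis), and 6 ORFs outside the axis limits are not drawn. A group of 4 Ty1 and 2 Ty2 rows lies at 0.92 to 1.23 in CO and 1.27 to 1.78 in N2, away from the other Ty ORFs, of which most lie inside the main cloud.

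The 6 rows also varied together across arrays. As a description over the 10 arrays up to 120 min, Pearson's r between any 2 of them was 0.93 to 0.99 (15 pairs), which includes pairs of a Ty1 and a Ty2 row. These arrays include those of 15 min on which the 6 rows were chosen, so part of the likeness restates the choice. Between the 6 rows and the other 10 TYB-holding ORFs of Ty1 and Ty2 r was 0.12 to 0.94 (60 pairs). Among those 10 it was -0.04 to 0.93 (45 pairs). Between the 6 rows and the Ty1 Gag ORFs it was -0.55 to 0.08 (48 pairs). Among the 8 Ty1 Gag ORFs it was 0.42 to 0.95 (28 pairs). When the 24 h arrays were included, every r within and between these groups was at least 0.73. The rows of a group share arrays, air references and sequence.

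Gag and Gag-Pol ORFs of one element lie on the same full-length RNA, and 10 elements had a row for each. The larger ORF was above its TYA ORF in 10 of 10 elements in N2 at 15 min, with a median difference of 0.88, in 9 of 10 at 30 and at 45 min (0.68 and 0.52), in 10 of 10 at 120 min (0.92) and in 9 of 10 at 24 h (0.76). In CO it was above in 8 of 10 at 15 min (0.45), 9 of 10 at 45 min (0.46) and 10 of 10 at 24 h (1.02). At other times the order was less regular. At 60 min the larger ORF was above in 5 of 10 elements in N2 (0.04) and in 1 of 10 in CO (-0.66), at 30 min in CO in 4 of 10 (-0.23), and at 120 min in CO in 6 of 10 (0.10). The CO arrays of 30 and 60 min had the fewest measured ORFs, at 5843 and 5852, and the part of this in the reversed order was not tested. YML039W and YML040W show the change within 1 element, since the larger ORF was 2.0 above the Gag ORF at 15 min in N2 and within 0.03 of it at 24 h.

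Over all 6 times of a gas, the Ty ORFs were above air with a wide spread, because 24 h differed from the rest. The median estimate over 29 ORFs was 1.05 in N2 and 0.95 in CO, against -0.02 and -0.04 over all ORFs, and without the 24 h arrays it was 0.39 in each. Limma called 8 Ty ORFs higher in N2 (17.6% of all ORFs were) and 7 in CO (12.7%), and 0 lower in either gas, where 20.2% and 19.4% of all ORFs were called lower. Both gases had calls for YER138C, YJR027W and YML039W of Ty1 and for YBL101W-A, YCL020W and YBL101W-B of Ty2. YAR009C and YCL019W were called in N2 and YJL114W of Ty4 in CO. The counts varied strongly with the arrays used: leaving out 120 min gave 5 in N2 and 1 in CO, leaving out 45 or 60 min gave 4 in CO, leaving out the CO array of 24 h gave 2 in CO, and leaving out both 24 h arrays gave 14 and 16. With exposure time as a block 26 were called in each gas, and with each gas's 15 min ratio subtracted 0 in each. The shares of all ORFs called under these alternatives are not given here, so nothing about the Ty ORFs is read from these counts.

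At 120 min 8 of 29 Ty ORFs were at or above 1 in N2 (9.29% of all ORFs), 11 in CO (10.1%) and 7 in both (5.94%). The median estimate of 60 and 120 min minus 15 and 30 min was 0.36 over the Ty ORFs and -0.02 over all ORFs. The Gag ORFs of Ty1 had a median of 0.59 and the TYB-holding ORFs of Ty1 one of 0.22. Limma called 0 of 29 Ty ORFs, where 3.44% of all ORFs were called higher and 9.29% lower, with 6 at an unadjusted p below 0.05. Without the 60 min arrays 2 were called, and without the 24 h arrays, or either one of them, 4. The shares of all ORFs called in these fits are not given here, and nothing is read from the counts.

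Most genes next to a Ty element did not share its late rise. By the R64 annotation, which was used for names and neighbours alone, the matched Ty ORFs fell into 17 elements, and 13 of them had a tRNA gene as the nearest gene on at least one side. Of 32 neighbouring ORFs, 30 had values at 24 h in both gases, with a median of -0.14 in N2 and -0.29 in CO. At or above 1 in both gases were 3 of the 30, against 12.6% of all ORFs, and 3 were at or below -1 in both. The 3 high ones were YER138W-A beside YER138C at 5.04 in N2 and 5.25 in CO, RBH2 (YJR030C) beside YJR029W at 4.20 and 3.88, and PDR3, which encodes a transcription factor of drug resistance, beside YBL005W-A at 2.74 and 2.30. Over the 12 arrays Pearson's r to the adjacent Ty row was 0.91, 0.97 and 0.88, and over the 10 arrays without 24 h 0.26, 0.58 and 0.02, so the likeness rests on the 24 h arrays.

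Among the genes known to act on Ty1 transcription, TEC1 rose with the Ty ORFs. TEC1, which encodes the partner of Ste12 at Ty1 and invasive-growth promoters, had 0.20, 0.11, 0.58, 0.50, 0.97 and 2.67 in N2 and 0.00, 0.32, 0.60, 0.77, 0.98 and 2.15 in CO. Its 24 h estimate was 1.89 ± 0.19 (adjusted p = 2.34e-05), and the call was made under every alternative run. Its partner STE12 did not pass in any comparison: 1.08 ± 0.56 at 24 h (adjusted p = 0.129), -0.59 ± 0.36 in N2 and -0.94 ± 0.36 in CO over all times. The STE12 value on the CO array of 60 min was -3.66, while on the other CO arrays it lay between -0.70 and 0.14. In each gas STE12 was highest at 24 h, at 0.21 in N2 and 0.14 in CO. FUS3, the mating kinase that acts on Tec1, was higher at 24 h by 1.01 ± 0.20 (adjusted p = 0.00155), a call lost under quantile normalization. Of the 11 listed Ty activators and their kinases, 4 were called higher and 1 lower at 24 h, with a median of 0.62, where 22.5% of all ORFs were called higher and 25.1% lower. The lower one, GCN4, the activator of amino acid synthesis, was at -0.59 ± 0.20 at 24 h, and over all times it was higher in N2 by 0.55 ± 0.15 and in CO by 0.58 ± 0.15. Its 24 h call was lost and its ratios to air changed sign under other settings. GCR1, the activator of glycolytic genes, was higher at 24 h by 0.88 ± 0.21, a call that was not made when the 24 h array of CO was left out or after quantile normalization.

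Subunits of SAGA and Swi/Snf, which many Ty1 promoters need, moved in different directions. Of 9 tested SAGA and TBP genes, 4 were called higher and 2 lower at 24 h (22.5% and 25.1% of all ORFs). SPT7 fell by 1.48 ± 0.21 (adjusted p = 1.66e-04) and SPT20 rose by 0.61 ± 0.16 (0.00854), while SPT3 (-0.14 ± 0.16) and HFI1 (0.01 ± 0.25) did not pass. Over all times HFI1 was lower in N2 by -0.97 ± 0.19 and in CO by -0.95 ± 0.19. Of 7 Swi/Snf genes, 1 was called higher and 1 lower at 24 h, no more than those shares: SNF6 rose by 1.96 ± 0.29 and SNF5 fell by 1.56 ± 0.18 (adjusted p = 5.64e-05), and the SNF5 call was made under every alternative run. SWI1 was lower over all times, at -1.05 ± 0.21 in N2 and -1.28 ± 0.21 in CO, also under every alternative. The calls of SPT7 and SNF6 at 24 h were lost under quantile normalization, and that of SPT20 without the CO array of 24 h.

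Mating genes and alpha-cell genes were listed because of the MATa label, which ratios of the same strain under gas and in air cannot check. Of the 11 genes of mating and Ste12 or Tec1 targets, 8 were tested and 5 were called higher at 24 h and 0 lower (22.5% and 25.1% of all ORFs). Of those the naming rule chose, AGA2, an a-cell agglutinin subunit, and FLO11, the flocculin of invasive growth, did not pass at 24 h (-0.30 ± 0.36 and -0.06 ± 0.46) and were higher over all times in N2 by 0.74 ± 0.19 and 0.75 ± 0.25. The FLO11 call was lost without 30 min, 45 min or 24 h, and that of AGA2 when the 15 min ratio was subtracted. The 5 called at 24 h, listed after their values were seen, were STE2, STE6, BAR1, FUS1 and FAR1. Of 4 alpha-cell genes 2 could be tested, and both are named here after their values were seen. SAG1, the alpha-agglutinin, was higher over all times in N2 by 0.82 ± 0.20 (adjusted p = 0.00743) and at 0.47 ± 0.20 in CO and 0.58 ± 0.34 at 24 h, which did not pass. STE3, the a-factor receptor, was lower at 24 h by -0.68 ± 0.17 (adjusted p = 0.00688). The 4 genes that are wholly or partly deleted in BY4741 had 0 calls in any of the 5 comparisons. A ratio to air does not show whether a gene is transcribed in either sample, so it cannot show that alpha-cell genes are silent.

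Genes listed as regulators of Ty1 transposition and genes of RNA turnover had small numbers of calls against air, and no direction is read from them. The RTT genes were identified as regulators of Ty1 transposition. Of 11 tested regulators, 4 were called lower in N2 and 3 in CO, and 0 higher. Of all ORFs, 20.2% were called lower and 17.6% higher in N2, and 19.4% lower and 12.7% higher in CO. RTT102 was at -0.73 ± 0.15 in N2 and -0.88 ± 0.15 in CO, RTT10 at -0.58 ± 0.13 in both, and RTT107 at -0.85 ± 0.18 and -0.54 ± 0.18. The calls of RTT102 and RTT10 were made in both gases under every alternative run, and that of RTT107 in CO was lost without 60 min, 120 min or 24 h. Of 10 RNA decay factors, 2 were called lower in N2 and 3 in CO, near the shares called lower over all ORFs, and 0 higher. NAM7, the nonsense-mediated decay helicase, was at -0.65 ± 0.13 in each gas under every alternative, and DCP2, the decapping enzyme, at -0.57 ± 0.12 in N2 and -0.51 ± 0.12 in CO. PAT1, a decapping activator, was lower in CO by -0.70 ± 0.17. The calls of DCP2 and PAT1 were lost when the 15 min ratio was subtracted, as were those of HFI1. XRN1, the main cytoplasmic exonuclease, and DBR1, the debranching enzyme, were at 0.20 ± 0.12 and 0.17 ± 0.11 in N2 and did not pass in either gas. Their 24 h calls (0.50 ± 0.16 and 0.43 ± 0.16) were lost when either 24 h array was left out.

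Of 6 listed genes of the RNA polymerase III machinery, at whose target genes Ty1 inserts, 2 were called lower in each gas (20.2% of all ORFs in N2 and 19.4% in CO) and 1 higher in CO (12.7%). RPC40, the polymerase subunit that Ty1 integrase binds, was at -0.93 ± 0.18 in N2 and -1.11 ± 0.18 in CO (adjusted p = 0.00229 and 0.00106). TFC4, a TFIIIC subunit, was at -0.83 ± 0.21 and -0.81 ± 0.21, and TFC4 fell by 1.13 ± 0.19 at 24 h. BRF1, a TFIIIB subunit, was higher in CO by 0.47 ± 0.17 (adjusted p = 0.0482), a call lost without any one of the times, and at 24 h by 0.90 ± 0.17. Both 24 h calls were lost under quantile normalization.

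The ORFs outside the Ty set whose profile over the 12 arrays was most like the mean of the Ty1 ORFs were DSE1 (YER124C, r = 0.99), PDR3 (0.98), PTI1 (YGR156W, 0.98), YPR002C-A (0.98) and MRPS5 (YBR251W, 0.98). Without the 24 h arrays r was 0.72, 0.71, 0.95, 0.79 and 0.25, so that PTI1 alone of the 5 kept a value above 0.90. PTI1, which encodes a pre-mRNA 3′-end processing factor, had 0.44, 0.22, 0.23, 0.49, 0.79 and 3.23 in N2 and 0.24, 0.07, 0.69, 0.37, 0.89 and 2.05 in CO.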

How the data were processed

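The authors deposited 1 table of log2 ratios, 1 value per ORF and array to 2 decimals, with Cy5 (gas) and Cy3 (air) per the labels. The base of the logarithm, the direction, the background correction, the centring and the platform were not given in the labels, so base 2 with gas over air was assumed. Values were used as deposited. The 5672 ORFs with 12 values were fitted in R 4.3.3 by limma 3.58.1 (lmFit, eBayes, Benjamini-Hochberg over those ORFs, threshold 0.05): gas means (10 residual degrees of freedom), gas with exposure time as a block (5), and period with gas (7). The period fit sets 24 h against the equal-weight mean of 15 and 30 min, 45 min, and 60 and 120 min. Because no gas and time was repeated, no p reflects the spread between cultures. For the gas means a p reflects the spread between arrays of different times. With exposure time as a block it reflects how the gas difference varied between times. In the period fit it reflects the spread between times within a period and how the gas difference varied between periods. A dye effect remains in the ratios to air. Per the labels both gases were sampled at matching times, with air cells of the same time, and the arrays were paired on that ground. Deviations from the gas means correlated at r of 0.255 to 0.776 at matching times. Values at unlike times are not given here, so these r do not show that paired arrays are more alike.

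The members, classes and 9 lists of other genes were chosen with earlier results of these data known. Values on every array are given for the Ty1 and Ty2 ORFs with the highest and lowest mean and for all Ty3 and Ty4 ORFs; other genes named are up to 3 per list with the largest mean ratio among those called in a gas, plus STE12, TEC1, GCR1, GCN4, SPT3, XRN1, DBR1 and RPC40, and exceptions are stated. Of the 30 Ty ORFs, 27 matched R64, and its coordinates are not printed because the labels name no build for the array. The fits were run on simulated data with noise independent between ORFs and arrays. Time trends and likeness between Ty copies were left out, so that run does not show how the fits behave on these arrays. Alternatives were median centring, quantile normalization, at least 10 arrays per ORF, the block, 15 min subtracted and each time left out; leaving out single 24 h arrays was added after seeing the data.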

Additional observations from a re-analysis of the deposited data

Results flagged for a closer look

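In the series below the 24 h array lay far enough from the other 5 to pass the critical value of Dixon's ratio, which chance passes in about 1 of 20 groups. The ORFs were selected on these same ratios, so that rate does not apply to them and the values are a description. The median over all Ty ORFs was 4.36 in N2 and 3.16 in CO at 24 h. For Ty1 it was 4.465 in N2 and 3.635 in CO, for Ty2 3.92 in N2, and for Ty3 2.985 in N2 and 1.29 in CO. The Ty3 value in CO at 24 h averages 2.80 for YIL082W-A and -0.22 for YIL080W. At 60 min in N2 and at 60 and 120 min in CO the Ty3 value was that of YIL082W-A alone. Of 58 series of 1 complete ORF in 1 gas, 42 had a highest array past the critical value of 0.625, and these series share sequence and are not independent. The 6 arrays of a gas differ in exposure time, so an extreme array is also an extreme time, and the 2 cannot be told apart with 1 array each.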

How the results depend on the processing

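The 24 h result kept its count of 28 Ty ORFs called higher whichever time or single 24 h array was left out, under median centring and with ORFs on at least 10 arrays, while quantile normalization moved its median from 3.04 to 1.29. Ty ORFs called higher against air numbered 8 in N2 and 7 in CO, and 16 and 15 after quantile normalization, 26 and 26 with exposure time as a replicate block, and 0 and 0 with the 15 min ratio subtracted. Leaving out 1 time, or 1 array of 24 h, gave 5 to 14 in N2 and 1 to 17 in CO (2 without the CO array of 24 h), medians as low as 0.39 in either gas, 0 to 4 calls for 60 and 120 min minus 15 and 30 min (2 without 60 min), and a median of CO minus N2 of 0.026, against -0.13 with all arrays. CO minus N2 had 0 calls with and without the replicate block. Shares of all ORFs called under the alternatives are not given here, so a change in these counts cannot be set against a change over all ORFs. With the 15 min ratio subtracted GCN4 turned to -0.458 in N2 and -0.45 in CO, and SPT20 to 0.008 in N2. In the 24 h comparison AGA2 turned to 0.75 without the CO array of 24 h, and under quantile normalization RTT102 turned to 0.19 and DCP2 to 0.13. The cause was not tested. Probe sequences and signal over background were not used here and no gas and time was repeated, so signal shared between Ty copies and the error at 24 h could not be measured.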
